A study of Mus musculus with 18 samples.

Results

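The nuclear genes that encode subunits of complexes II to V of the mitochondrial respiratory chain were described across bone marrow-derived macrophages (BMMs) of 3 genotypes with and without lipopolysaccharide (LPS). Genes were chosen by symbol as Sdha, Sdhb, Sdhc, Sdhd, Cyc1 and every symbol that starts with Uqcr, Atp5, Cox4, Cox5, Cox6, Cox7 or Cox8. This gave 49 genes, of which 42 had a mean of at least 1 TPM (a level scaled by transcript length and by the total of the library) over the 18 libraries, out of 38887 genes in the library data. The 42 genes were 4 of complex II, 9 of complex III, 12 of complex IV and 17 of complex V. All 42 passed the filter on low counts in each comparison.

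The cells came from female C57BL/6J mice between 10 and 23 weeks of age. Animals described as Lyz2-Cre mice were taken as WT, and in this strain the endogenous Lyz2 promoter drives Cre in myeloid cells. In GILZ KO mice this Cre removes exon 6 of the Gilz gene (Tsc22d3), which is flanked by loxP sites, and in GILZ TG mice it removes a stop cassette in front of a Gilz-1 cDNA in the ROSA26 locus. GILZ is a glucocorticoid-induced leucine zipper protein with anti-inflammatory actions, and LPS is a bacterial cell wall component that activates macrophages. BMMs of each genotype were left untreated or received 100 ng/ml LPS for 4 h, with 3 libraries in each of the 6 groups. The study describes the libraries of a group as independent preparations from separate mice. Whether an untreated and an LPS library of the same number came from the same mouse is not given in the sources used here.

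Complex II (succinate dehydrogenase) passes electrons from succinate to ubiquinone and is also an enzyme of the citric acid cycle. Complex III (cytochrome bc1) carries them on to cytochrome c, complex IV (cytochrome c oxidase) hands them to oxygen, and complex V (ATP synthase) uses the proton gradient to form ATP. All subunits of complex II are encoded in the nucleus, whereas complexes III, IV and V each combine nuclear subunits with subunits of the mitochondrial genome. LPS-activated mouse macrophages are known to shift from respiration to glycolysis. Succinate oxidation by complex II is known to drive the production of reactive oxygen species in these cells.

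The total count on genes was between 14583055 and 38557029 per library, with a median of 24450362. Tsc22d3 was at 14.9 to 18.8 TPM in untreated WT, 1.89 to 2.81 TPM in untreated GILZ KO and 152 to 160 TPM in untreated GILZ TG. After LPS it was at 4.56 to 5.81 TPM in WT, 2.50 to 3.28 TPM in GILZ KO and 127 to 141 TPM in GILZ TG, so the genotypes kept this order without overlap but WT and GILZ KO lay closer together than without LPS. Lyz2 was at 11048 to 15401 TPM in untreated WT and at 17.2 to 53.1 TPM in untreated GILZ KO and GILZ TG together, and after LPS at 6766 to 9466 TPM and 22.2 to 70.3 TPM. These levels go against the same state of the Lyz2 locus in all 3 genotypes, each of which is described as carrying Cre there. The state of Lyz2 and the GILZ genotype therefore cannot be told apart in comparisons with WT. The 7 macrophage markers summed to between 3825 and 5021 TPM over the 18 libraries, and the erythroid markers to at most 0.88 TPM. In RNA from whole cultures, fewer cells of a type and less RNA per cell cannot be told apart.

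The nuclear chain genes were abundant: 41 of the 42 had a mean of 100 TPM or more. The highest level belonged to Atp5b, the catalytic beta subunit of the ATP synthase, with 979 TPM and between 12289 and 34064 counts per library. It was followed by Cox4i1, the main regulatory subunit of complex IV, with 840 TPM. In complex II the levels ran from 131 TPM for the membrane anchor Sdhd to 304 TPM for the other anchor Sdhc. In complex III they ran from 105 TPM for Uqcrfs1, the Rieske iron-sulfur protein, to 290 TPM for Uqcrb, and the lowest gene of complex V was Atp5l at 104 TPM. The exception among the 42 genes was Cox7a1, the heart and muscle form of subunit VIIa, with 10.9 TPM and between 15 and 61 counts.

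Forms of complex IV subunits known from other tissues made up most of the genes left out by the TPM minimum. Cox6b2 had a mean of 0.6 TPM, Cox6a2, the muscle form of subunit VIa, 0.483 TPM, and Cox4i2, a form of subunit IV known from lung, 0.141 TPM. Cox8b, Cox8c and Cox7b2 were listed at 0 in all 18 libraries. Cox5b-ps, a pseudogene by its name but protein-coding in the GRCm38 annotation, had 0.518 TPM. Cox6b2 was the gene closest below the minimum of 1 TPM, and the closest above it was Cox7a1, well clear of it with a mean of 10.9 TPM.

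**Figure D1:**
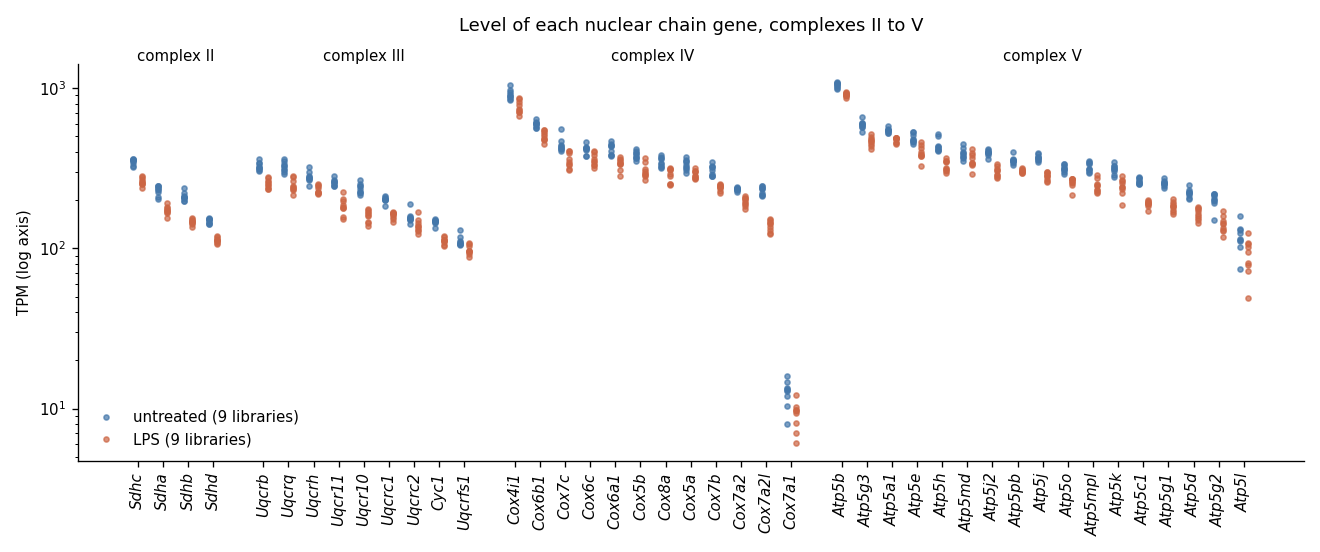
TPM of the 42 nuclear chain genes on a log axis, grouped by complex, with 1 point per library coloured by treatment. Atp5b is the highest, Cox7a1 lies apart at 6.12 to 16.05 TPM, and the lowest point of any other gene is Atp5l at 49.3 TPM.

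Together the 42 genes accounted for 1.41% ± 0.0417 of all TPM in untreated WT, 1.40% ± 0.00759 in GILZ KO and 1.47% ± 0.044 in GILZ TG (SD, n = 3 each). With LPS this share was 1.11% ± 0.0603 in WT, 1.15% ± 0.0192 in GILZ KO and 1.16% ± 0.0735 in GILZ TG. Every untreated library lay above every LPS library of its genotype, and the 3 genotypes overlapped after LPS. Complex V held the largest part of this share, with 0.650% to 0.678% as group means without treatment and 0.523% to 0.543% after LPS. Complex II held the smallest, with 0.0933% to 0.0940% and then 0.0684% to 0.0702%.

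The direction of the LPS effect depended on the scale. On edgeR's TMM scale, which assumes that most genes do not change, 31 of the 42 genes were called higher after LPS in WT, 34 in GILZ KO and 33 in GILZ TG, with 0 called lower, whereas with library totals alone 0 were called higher and 39, 36 and 40 were called lower. On log2(TPM + 1), 39, 36 and 39 genes were called lower by limma and 0 higher. These counts stand beside 68.3%, 67.2% and 68.3% of all genes called lower with library totals alone and 65%, 66.1% and 65.2% on log2(TPM + 1). Of all 13169 genes tested on the TMM scale, 33.5% were called higher in WT, 33.2% in GILZ KO and 33.6% in GILZ TG, and 35.1%, 35.4% and 35.1% lower. Among the 1741 genes with a mean of 100 TPM or more, 65.8%, 70.1% and 68.6% were called higher, so most abundant genes shared the direction of the chain genes. The WT count rested partly on single libraries: without WT untreated replicate 1 it was 18, of which 17 were higher and 1 (Atp5l) lower, and without WT untreated replicate 2 it was 20. With either of these left out, 5 genes of complex IV were called higher in WT, beside 10 with all libraries, and of complex V 5 and 7, beside 12. Without WT LPS replicate 2 complex V had 7 as well. In GILZ TG, 25 genes were called higher without GILZ TG untreated replicate 1, beside 33 with all libraries.

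Relative to the median gene the nuclear chain genes lay high on each scale. Their median log2 fold change on the TMM scale was 0.26 in WT, 0.32 in GILZ KO and 0.29 in GILZ TG, against -0.02 for all genes in each genotype. With library totals alone it was -0.42, -0.32 and -0.38, against -0.70, -0.66 and -0.69 for all genes. On log2(TPM + 1) it was -0.38, -0.32 and -0.34, against -0.51, -0.52 and -0.51. Above the median gene lay 39, 40 and 41 of the 42 genes on both count scales, and 37, 40 and 39 on log2(TPM + 1). Genes with 100 TPM or more had TMM medians of 0.33, 0.36 and 0.34, slightly above those of the chain genes. The TMM factors were 1.24 to 1.28 in untreated libraries and 0.756 to 0.828 in LPS libraries. No spike-in RNA was named in the methods, so the amount per cell was not measured.

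**Figure D2:**
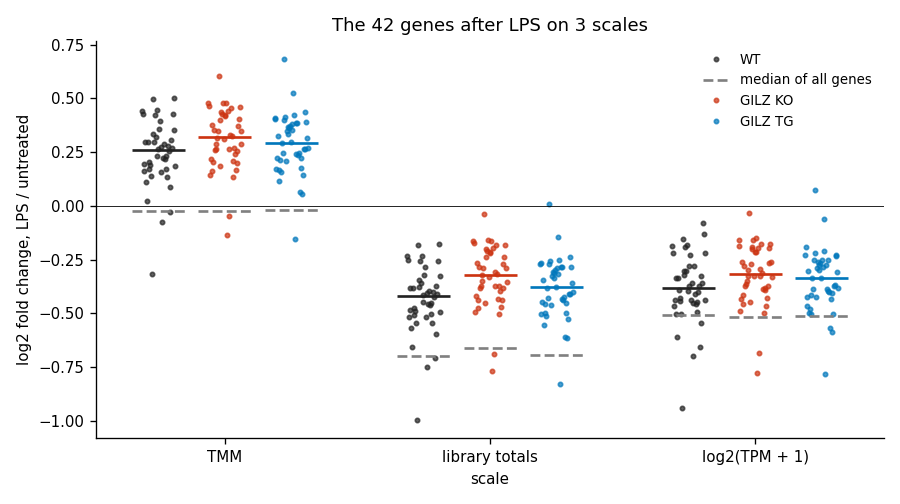
Log2 fold change of the nuclear chain genes after LPS in each genotype, on the TMM scale, with library totals alone and on log2(TPM + 1), with the median of all genes marked. The chain genes lie mostly above 0 on the TMM scale and below 0 on the other scales, and mostly above the median gene on each scale.

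On the TMM scale 29 of the 42 genes were called higher after LPS in all 3 genotypes, although their mean TPM was lower after LPS. The share of all genes called higher in all 3 genotypes was not counted. In single genotypes, 33.2% to 33.6% of all genes and 65.8% to 70.1% of genes with 100 TPM or more were called higher. With the calls of the other genotypes kept, the count of 29 became 17 without WT untreated replicate 1 and 19 without WT untreated replicate 2. It was 22 without GILZ TG untreated replicate 1. Without GILZ TG untreated replicate 2, GILZ TG LPS replicate 1 or WT LPS replicate 2 it was 23. With any other library left out it was 26 to 29. A further 4 of the 42 were called in 2 genotypes, 3 in 1 genotype and 6 in none. The 6 were Sdhb, Uqcr10, Uqcr11, Cox7a1, Cox7a2l and Atp5g2. In TPM, 38 genes in WT, 41 in GILZ KO and 37 in GILZ TG had every LPS library below every untreated library, against 64.8%, 67.3% and 65.2% of all genes, and 0 had every LPS library above.

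**Figure D3:**
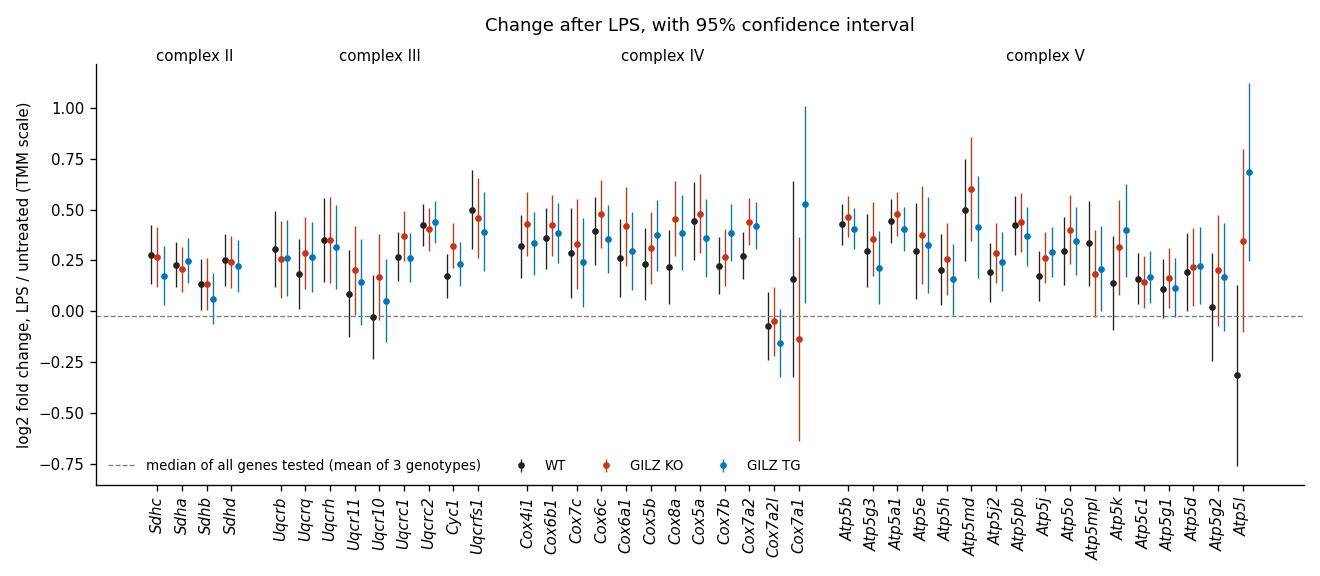
Log2 fold change after LPS on the TMM scale for each nuclear chain gene in WT, GILZ KO and GILZ TG, ordered by complex, with 95% confidence intervals. Most genes lie between 0 and 0.5 in all 3 genotypes on this scale and lie below 0 with library totals alone, and Atp5l differs most between the genotypes.

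In complex II, 3 of 4 genes were called higher on the TMM scale in each genotype, and all 4 had a lower TPM after LPS. Sdha, the flavoprotein that oxidises succinate, was at 235, 239 and 202 TPM in untreated WT libraries and at 167, 154 and 174 TPM after LPS. All LPS values of Sdha lay below the untreated ones in WT. Its TMM log2 fold change was 0.23 ± 0.05 (standard error) in WT, 0.21 ± 0.05 in GILZ KO and 0.25 ± 0.05 in GILZ TG (edgeR adjusted p = 0.00085, 0.00208 and 0.000433), opposite in sign to its TPM. Sdhc and Sdhd, the anchors that bind ubiquinone, had 0.28 and 0.25 in WT, 0.27 and 0.24 in GILZ KO, and 0.18 and 0.22 in GILZ TG on the same scale. Sdhb, the iron-sulfur subunit that passes electrons from Sdha to the anchors, was not called, with 0.13 in WT, 0.13 in GILZ KO and 0.06 in GILZ TG (edgeR adjusted p = 0.056, 0.0557 and 0.366). Its TPM was 207 to 209 in untreated WT and 142 to 153 after LPS.

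In complex III, 6, 7 and 7 of 9 genes were called higher in WT, GILZ KO and GILZ TG on the TMM scale, with TPM lower after LPS. Uqcrfs1, which moves electrons from ubiquinol to cytochrome c1, was at 106, 110 and 118 TPM in untreated WT and at 92.3, 108 and 106 TPM after LPS. The LPS range of Uqcrfs1 in WT overlapped the untreated one. Its TMM log2 fold change of 0.50 in WT, 0.46 in GILZ KO and 0.39 in GILZ TG (edgeR adjusted p = 0.000119, 0.00033 and 0.00112) was the highest of the complex in WT and GILZ KO. The core proteins Uqcrc1 and Uqcrc2, which form the matrix side of the complex, had 0.27 and 0.42 in WT. In GILZ KO they had 0.37 and 0.40, and in GILZ TG 0.26 and 0.44. The TPM of Uqcrc1 was lower after LPS in every genotype. An exon of Uqcrc2 overlaps the opposite-strand gene Pdzd9, so its value is less certain. Of the 42 genes, 12 had such an overlap, among them Uqcrb, Cox5a, Cox6c, Atp5d, Atp5j, Atp5o and Atp5pb. Cyc1, the cytochrome c1 subunit, had 0.17, 0.32 and 0.23 on the TMM scale, while its TPM went from 148 to 153 in untreated WT down to 104 to 112. Uqcrh, the hinge protein, was at 0.35, 0.35 and 0.31 on the TMM scale, with TPM means lower after LPS. Uqcrb, a small subunit near the ubiquinone site, had 0.31, 0.26 and 0.26 on the TMM scale, and Uqcrq passed in GILZ KO and GILZ TG but not in WT (0.18, edgeR adjusted p = 0.0567), both with lower TPM means after LPS. Counts of Uqcrb were not whole in 15 libraries. The small subunits Uqcr10, with -0.03, 0.17 and 0.05, and Uqcr11, with 0.09, 0.20 and 0.14, were not called in any genotype.

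In complex IV, 10 of 12 genes were called higher in each genotype on the TMM scale, again with TPM lower after LPS. Cox4i1 was at 847, 889 and 873 TPM in untreated WT and at 666, 744 and 705 TPM after LPS, without overlap. Its TMM log2 fold change was 0.32, 0.43 and 0.33 in WT, GILZ KO and GILZ TG (edgeR adjusted p = 0.000921, 5.7e-05 and 0.000609), opposite to its TPM. An exon of Cox4i1 overlaps Emc8 on the opposite strand, and the strand setting of the counting is not given in the sources used here. Cox5a, a subunit on the matrix side, had 0.44, 0.48 and 0.36 on the TMM scale, and its LPS and untreated TPM ranges overlapped in WT. Cox6c had 0.40, 0.48 and 0.35, Cox6b1, which joins the monomers of the enzyme, 0.36, 0.42 and 0.38, and Cox8a, the smallest subunit, 0.22, 0.46 and 0.39, all on the TMM scale and all with lower TPM means after LPS. Cox6a1, the form of subunit VIa outside muscle, had 0.26, 0.42 and 0.30 against TPM means that were lower after LPS. Cox5b, Cox7b and Cox7c were called in each genotype at 0.22 to 0.39 on the TMM scale, against lower TPM means. Counts were not whole in 17 libraries for Cox7c, 14 for Cox5b and 9 for Cox6c, so some of their reads were shared in the counting. Cox7a1 was not called, with 0.16, -0.13 and 0.53 on the TMM scale (edgeR adjusted p = 0.554, 0.736 and 0.0503) at its few counts. With pairs of the same genotype and replicate number as a block, it was called in GILZ TG alone, at 0.56 (edgeR adjusted p = 0.0384).

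Within the subunit VIIa family, Cox7a2 and Cox7a2l differed from each other in their change after LPS. Cox7a2 encodes the form of subunit VIIa found in most tissues, and Cox7a2l (Scaf1) encodes a related protein that joins complexes III and IV into a supercomplex. In GRCm38, Cox7a2 lies on chromosome 9 from 79755361 to 79759878 on the minus strand, and Cox7a2l on chromosome 17 from 83501918 to 83517330 on the minus strand. The sequences upstream of their RefSeq start sites (GRCm38.p6, minus strand, bases outside annotated exons) are shown because these genes parted after LPS, with the letters GGGCGG, a site known to be bound by SP1, in capitals.
Cox7a2, chr9:79759879-79760103: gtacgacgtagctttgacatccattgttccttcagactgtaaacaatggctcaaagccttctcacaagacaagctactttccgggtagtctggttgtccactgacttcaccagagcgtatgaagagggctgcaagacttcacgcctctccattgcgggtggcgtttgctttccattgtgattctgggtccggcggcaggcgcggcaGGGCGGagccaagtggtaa
Cox7a2l, chr17:83514334-83514583: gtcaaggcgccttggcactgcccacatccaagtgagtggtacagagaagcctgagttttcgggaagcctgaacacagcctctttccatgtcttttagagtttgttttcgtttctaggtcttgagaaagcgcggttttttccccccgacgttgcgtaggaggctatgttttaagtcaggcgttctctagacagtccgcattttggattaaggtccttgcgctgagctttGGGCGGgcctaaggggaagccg
The Cox7a2 stretch ends 26 bases before the start site, and that of Cox7a2l ends at the base before it, inside the longer gene model of the GRCm38 annotation. Each holds GGGCGG 1 time on the shown strand.

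Cox7a2 was at 237, 231 and 238 TPM in untreated WT, 236, 235 and 223 TPM in GILZ KO and 232, 243 and 234 TPM in GILZ TG. After LPS it was at 190, 185 and 176 TPM in WT, 207, 207 and 192 TPM in GILZ KO and 211, 205 and 197 TPM in GILZ TG. Every LPS library thus lay below every untreated one. Cox7a2l was at 215, 215 and 246 TPM in untreated WT, 237, 243 and 233 TPM in GILZ KO and 211, 220 and 236 TPM in GILZ TG. After LPS it was at 125, 146 and 144 TPM in WT, 152, 142 and 150.0 TPM in GILZ KO and 135, 129 and 122 TPM in GILZ TG. Cox7a2l therefore had similar levels to Cox7a2 without treatment, and was lower than Cox7a2 in every library after LPS.

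The ratio of Cox7a2 to Cox7a2l TPM was 0.958 to 1.10 in the 9 untreated libraries, with a median of 0.993, and 1.22 to 1.61 in the 9 LPS libraries, with a median of 1.45. The ranges did not overlap. The log2 change of the ratio was 0.34 in WT, 0.49 in GILZ KO and 0.58 in GILZ TG, with a mean of 0.47. An exact two-sided permutation test of libraries within genotypes gave p = 0.00025, the smallest that its 8000 arrangements can give. The exact permutation p adjusted over the 6 ratios tested was 0.0015. The ratios were chosen after seeing these data, so their p-values are not independent support for a difference. A ratio within a library does not depend on the scaling of libraries, but shows only unequal change and not which gene changed. On the TMM scale Cox7a2 was called higher, with 0.27, 0.44 and 0.42 (edgeR adjusted p = 0.000279, 1.78e-06 and 2.47e-06), and Cox7a2l was not called, with -0.07, -0.05 and -0.16 (edgeR adjusted p = 0.431, 0.607 and 0.0928). With library totals alone both were called lower, with -0.41, -0.20 and -0.25 for Cox7a2 and -0.75, -0.69 and -0.83 for Cox7a2l. Counts of Cox7a2l were not whole numbers in 11 libraries, so some of its reads were shared in the counting, and with what was not tested. The ratios with Cox7a1 were not called, with a log2 change of 0.21 for Cox7a2 to Cox7a1 (exact permutation p = 0.187, adjusted 0.224) and -0.26 for Cox7a2l to Cox7a1 (exact permutation p = 0.105, adjusted 0.157). Without GILZ KO LPS replicate 3 the latter was called at -0.33 (exact permutation adjusted p = 0.0435).

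**Figure D4:**
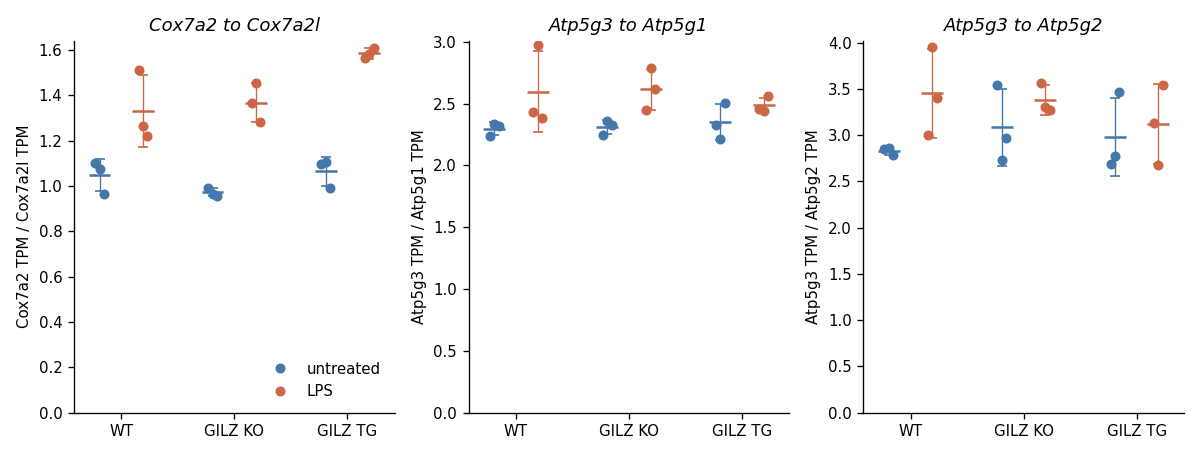
Ratios of TPM within each library for pairs of related chain genes in each genotype, with 1 point per library coloured by treatment. Only the ratio of Cox7a2 to Cox7a2l separates all untreated libraries (0.958 to 1.10) from all LPS libraries (1.22 to 1.61).

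In complex V, 12, 14 and 13 of 17 genes were called higher on the TMM scale in WT, GILZ KO and GILZ TG, while TPM was lower after LPS for most. Atp5b was at 1071, 1075 and 1031 TPM in untreated WT and at 889, 941 and 902 TPM after LPS. Its ranges did not overlap in WT, and nor did those of GILZ KO, with 983 to 1091 and 871 to 931 TPM, or GILZ TG, with 1031 to 1067 and 909.95 to 935 TPM. The TMM log2 fold change of Atp5b was 0.43 ± 0.05 in WT, 0.47 ± 0.05 in GILZ KO and 0.41 ± 0.05 in GILZ TG (edgeR adjusted p = 4.11e-07, 1.56e-07 and 7.97e-07), opposite to the TPM. Atp5a1, the alpha subunit that forms the catalytic head with Atp5b, had 0.44, 0.48 and 0.41 on the TMM scale (edgeR adjusted p = 7.23e-07, 3.05e-07 and 2.18e-06), and its TPM was 521 to 537 in untreated WT and 450.1 to 490 after LPS. Atp5c1, the gamma subunit that turns inside this head, had 0.16, 0.14 and 0.17, and its TPM was lower after LPS. Atp5md, a small membrane subunit, had 0.50, 0.60 and 0.41 on the TMM scale (edgeR adjusted p = 0.00124, 0.000273 and 0.00486), and in TPM its WT ranges overlapped, with 372 to 393 untreated and 292 to 418 after LPS. Of the stalk that holds the catalytic head in place, Atp5pb had 0.42, 0.44 and 0.37 and Atp5o 0.30, 0.40 and 0.35 on the TMM scale, with lower TPM means. Atp5e, Atp5j and Atp5j2 were called in each genotype at 0.17 to 0.37 on this scale, Atp5d, Atp5h and Atp5k in 2 genotypes each, and Atp5mpl in WT alone at 0.34, all with lower TPM means. Counts of Atp5pb, Atp5o and Atp5h were not whole in all 18 libraries and those of Atp5md in 16, so some of their reads were shared in the counting. Another gene entry named Atp5o overlaps exons of Atp5o on the same strand, and whether these entries shared reads was not tested. Exons of Atp5a1 and Atp5md overlap Haus1 and Taf5 on the opposite strand.

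The c-ring of the ATP synthase, which turns with the flow of protons, is built from 1 protein that 3 genes encode with different import sequences. Atp5g3 (chromosome 2, 73908447 to 73911326) had a mean of 528 TPM, Atp5g1 (chromosome 11, 96068852 to 96075670) 218 TPM and Atp5g2 (chromosome 15, 102662864 to 102672352) 171 TPM. On the TMM scale Atp5g3 was called higher after LPS in each genotype, with 0.30, 0.35 and 0.21, and lower in TPM. Atp5g1 had 0.11, 0.16 and 0.12 and passed in GILZ KO alone (edgeR adjusted p = 0.0496), and Atp5g2 had 0.02, 0.20 and 0.17 and was not called. The ratio of Atp5g3 to Atp5g1 was 2.32 ± 0.0857 in untreated and 2.57 ± 0.196 in LPS libraries (SD, n = 9 each), with ranges of 2.22 to 2.50 and 2.38 to 2.97 that overlapped. Its log2 change was 0.14 (exact permutation p = 0.00125, adjusted 0.00375), or 0.16 from the counts. The ratios of the c-ring genes were also chosen after seeing these data. The ratio of Atp5g3 to Atp5g2 changed by 0.16 (exact permutation p = 0.0543, adjusted 0.109) and that of Atp5g1 to Atp5g2 by 0.02 (exact permutation p = 0.797). The call for Atp5g3 to Atp5g2 depended on the fit: its adjusted p was 0.0391 with pairs of the same genotype and replicate number as a block (exact sign changes). Its log2 change was 0.20 without GILZ KO untreated replicate 1, GILZ TG untreated replicate 3 or GILZ TG LPS replicate 2, each time called (exact permutation adjusted p = 0.039, 0.032 and 0.0405). Counts were not whole in 16 libraries for Atp5g1 and 18 for Atp5g2, so some of their reads were shared in the counting, and with what was not tested.

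Motifs were counted in the 250 bases upstream of RefSeq start sites (GRCm38.p6), on both strands, for the 33 chain genes that the promoter table lists. GCGCATGC, part of the site that nuclear respiratory factor 1 is known to bind, was found in 5 of 33 (15.2%), namely Sdhb, Cox6a1, Atp5k, Atp5g2 and Atp5l, against 2.56% of all 27025 genes. CCGGAAG, the core bound by ETS factors such as GABP, was found in 9 of 33 (27.3%), against 7.83%. GGGCGG was found in 10 of 33 (30.3%), against 35.4% of all genes, and AAGATGGC, the letters bound by YY1, in 1 of 33 (3.03%), against 1.83%. No motif contains another, and the counts describe letters in this window.

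Genes that work with complexes II to V were compared on lists of complex I subunits, assembly factors, electron carriers and transcription regulators. Of 36 nuclear complex I subunits, 15, 21 and 19 were called higher after LPS on the TMM scale in WT, GILZ KO and GILZ TG and 0 lower, whereas with library totals alone 36, 35 and 36 were called lower. On the TMM scale the shares called higher lay above those of all genes, at 33.5%, 33.2% and 33.6%, and below those of genes with 100 TPM or more, at 65.8%, 70.1% and 68.6%. Ndufs4 had the highest value in GILZ TG with 0.52 on the TMM scale, and 0.39 and 0.45 in WT and GILZ KO. Ndufa1 had 0.26, 0.46 and 0.39 in WT, GILZ KO and GILZ TG. Subunits encoded by the mitochondrial genome were not analysed here.

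Assembly factors of complexes II to V were called in both directions, as were genes in general. On the TMM scale 10 of 36 were called higher in each genotype and 17, 14 and 17 lower, beside 33.2% to 33.6% of all genes higher and 35.1% to 35.4% lower, and with library totals alone 4 were called higher and 28 lower in each genotype. Coa5, needed for an early step of complex IV assembly, was at 56.8 to 71.8 TPM in untreated WT and 144 to 161 TPM after LPS, a TMM log2 fold change of 1.84. It was 1.75 in GILZ KO and 1.70 in GILZ TG. Cox18, which inserts a mitochondrially encoded subunit into the membrane, had 1.48, 1.53 and 1.39, and Sco1, a copper chaperone of complex IV, 1.35, 1.35 and 1.31. Coa5, Cox18 and Sco1 were called higher also with library totals alone and on log2(TPM + 1) in all 3 genotypes. Among the factors that fell, Sdhaf1, which helps load iron-sulfur clusters into Sdhb, was at 18.1 to 21.4 TPM in untreated WT and 4.21 to 4.55 TPM after LPS, with a TMM log2 fold change of -1.50 in WT, -1.70 in GILZ KO and -1.57 in GILZ TG. Sco2, the other copper chaperone, had -1.43, -1.14 and -1.41, and Pet117 -1.21, -1.70 and -1.26.

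Cytochrome c, the carrier between complexes III and IV, increased on each scale. Cycs was at 198 to 207 TPM in untreated WT and 264 to 282 TPM after LPS, at 234 to 243 and 301 to 349 TPM in GILZ KO, and at 233 to 244 and 280.1 to 356 TPM in GILZ TG, without overlap in any genotype. Its TMM log2 fold change was 1.10 in each genotype, and with library totals alone it was 0.42, 0.46 and 0.42. Ndufa4, a subunit now assigned to complex IV, was called higher on the TMM scale with 0.21, 0.27 and 0.33, but lower with library totals alone, with -0.47, -0.37 and -0.34. AA467197 (Nmes1), a paralogue of Ndufa4, was at 17.2 to 28.3 TPM in untreated WT and 413 to 454 TPM after LPS, at 22.8 to 31.9 and 418 to 495 TPM in GILZ KO, and at 30.1 to 51.7 and 418 to 840 TPM in GILZ TG. Its TMM log2 fold change was 4.86, 4.74 and 4.56, and with library totals alone 4.19, 4.10 and 3.87. After LPS the AA467197 level exceeded that of Ndufa4 in every library, the reverse of the untreated state. Of the 6 genes of this list that were tested, 3, 5 and 4 were called higher and 0 lower on the TMM scale. With library totals alone 2 were called higher and 4 lower in each genotype. Beside these counts, 33.2% to 33.6% of all genes were called higher on the TMM scale and 67.2% to 68.3% lower with library totals alone.

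Among 12 regulators of respiratory chain transcription, 5, 4 and 5 were called higher and 6, 6 and 6 lower on the TMM scale. These counts stand beside 33.2% to 33.6% of all genes called higher and 35.1% to 35.4% called lower. Esrra, which encodes the nuclear receptor ERR alpha that activates many chain genes, had 0.81, 0.96 and 0.75 on the TMM scale, but was called with library totals alone in GILZ KO only, at 0.32 against 0.13 in WT and 0.08 in GILZ TG. Pprc1, a coactivator of nuclear respiratory factor 1, was at 44.1 to 57.6 TPM in untreated WT and 10.6 to 13.1 TPM after LPS, with TMM values of -1.54, -1.37 and -1.56. Polrmt, the mitochondrial RNA polymerase, had -1.14, -1.09 and -0.88, and Tfb2m, its initiation factor, -0.90, -0.79 and -0.85.

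Between genotypes of the same treatment, 0 of the 42 nuclear chain genes were called in any of the 6 comparisons. Of all genes tested in untreated BMMs, the share called by edgeR was 0.0951% for GILZ KO against WT, 0.642% for GILZ TG against WT and 4.94% for GILZ KO against GILZ TG. After LPS it called 0.0822%, 0.46% and 2.6% of all genes in these comparisons. At an unadjusted p under 0.05 there were 1, 3 and 7 chain genes in untreated BMMs and 2, 4 and 1 after LPS. Of all genes, 9.60%, 14.1% and 24.6% had such a p in untreated BMMs and 9.63%, 15.2% and 19.1% after LPS, so each count of chain genes lay below the share of all genes. DESeq2 called 0 chain genes in 4 of the 6 comparisons, and in the other two it called Sdhb and Atp5h and, respectively, Atp5l. The median log2 fold change of the 42 genes was -0.06, 0.03 and -0.09 in untreated BMMs and 0.03, 0.07 and -0.03 after LPS, with medians of all genes at 0.00, 0.00 and 0.00 and then 0.00, 0.01 and 0.00. The comparisons share groups and are not independent of each other.

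**Figure D5:**
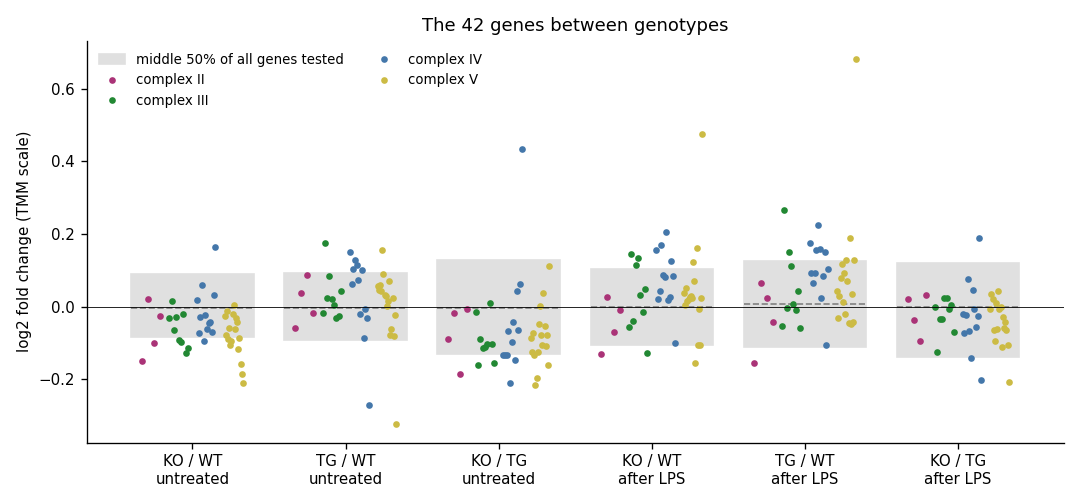
Log2 fold change of each nuclear chain gene between genotypes, untreated and after LPS, on the TMM scale, with points coloured by complex. Grey boxes mark the interquartile range of all genes tested, and dashed lines their median. Most genes lie close to 0, and Atp5l after LPS lies farthest from it in comparisons with WT.

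The lowest adjusted p-values were found between GILZ KO and GILZ TG in untreated BMMs, where 35 of 42 chain genes had a negative log2 fold change, while 49.1% of all genes had a positive one. GILZ KO against WT, which shares the GILZ KO libraries, also had 35 of 42 negative values without treatment, but 30 of 42 positive values after LPS. Sdhb was at 198, 199 and 205 TPM in GILZ KO and 211, 221 and 237 TPM in GILZ TG, without overlap. Its log2 fold change was -0.19 with a 95% confidence interval from -0.32 to -0.05 (edgeR adjusted p = 0.0886). Atp5h, which is part of the stalk of the ATP synthase, was at 430.3, 404 and 429 TPM in GILZ KO and 435, 513 and 498 TPM in GILZ TG, with a log2 fold change of -0.21 (95% confidence interval -0.37 to -0.06, edgeR adjusted p = 0.0923). DESeq2 called these genes, with adjusted p = 0.0403 and 0.0452. Counts of Atp5h were not whole in all 18 libraries, so some of its reads were shared in the counting and its level is less certain. Among genes that work with the chain, GILZ KO had lower Ndufb9 (-0.19) and Higd2a (-0.29) and higher Gabpb2 (0.29) than GILZ TG, the only ones of these lists called in a genotype comparison. The 7 neutrophil lineage markers summed to 62.2 to 449 TPM in untreated GILZ TG, 27.8 to 56.3 TPM in GILZ KO and 22.1 to 55.9 TPM in WT. The 7 stromal fibroblast markers summed to 14.3 to 166 TPM in GILZ TG and 6.15 to 16.5 TPM in GILZ KO, and the 6 B cell markers to 35.9 to 153 TPM and 31.6 to 34.7 TPM. Their part in the differences was not tested.

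Atp5l, the g subunit that helps join ATP synthase dimers, varied between libraries of a group. It was at 101, 159 and 131 TPM in untreated WT, 124, 114 and 112 TPM in GILZ KO and 132, 111 and 74.6 TPM in GILZ TG. After LPS it was at 72.4, 81.3 and 49.3 TPM in WT, 106, 102 and 78.3 TPM in GILZ KO and 124, 95.4 and 107 TPM in GILZ TG. LPS libraries of WT lay below the untreated ones, GILZ TG ranges overlapped between treatments, and after LPS every GILZ TG value lay above every WT value. The log2 fold change of GILZ TG against WT after LPS was 0.68 (95% confidence interval 0.28 to 1.08, edgeR adjusted p = 0.129) and that of GILZ KO against WT 0.48 (0.07 to 0.89, adjusted p = 0.452). In GILZ TG against WT after LPS, DESeq2 and the fit without a filter each called Atp5l, with adjusted p = 0.0217 and 0.0109, and without GILZ TG LPS replicate 3 edgeR called Uqcrq, a small subunit of complex III, and Cox5b, which binds zinc in complex IV, instead, with adjusted p = 0.0356 and 0.032. Counts of Atp5l were not whole in all 18 libraries, and Gm30934 overlaps one of its exons on the opposite strand, so its level is uncertain.

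The response to LPS was compared between genotypes by the difference of the LPS effects. Neither edgeR nor DESeq2 called a chain gene (0 of 42) in GILZ KO or in GILZ TG against WT, where edgeR called 0.0152% and 0.00759% of 13169 genes. At an unadjusted p under 0.05 there were 2 and 1 chain genes, no more than the 6.36% and 3.09% of all genes. Atp5l responded with -0.32 in WT, 0.35 in GILZ KO and 0.68 in GILZ TG on the TMM scale (edgeR adjusted p = 0.194, 0.158 and 0.00734). The difference was 0.66 in GILZ KO against WT (95% confidence interval 0.03 to 1.29, edgeR adjusted p = 0.754) and 1.00 in GILZ TG against WT (0.38 to 1.62, adjusted p = 1.00). For Cox7a2 the difference in GILZ KO against WT was 0.17 (95% confidence interval 0.00 to 0.33, edgeR adjusted p = 0.776). The median difference of the 42 genes was 0.05 in GILZ KO against WT and 0.01 in GILZ TG against WT, with -0.02 and 0.00 for all genes.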

How the data were processed

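RNA of 18 BMM libraries (3 per group) was enriched for poly(A), made into directional libraries and sequenced as single reads of 75 bases. Reads were processed by the authors with the grape-nf pipeline and mapped to GRCm38. The deposited library files give, per gene, an expected count (an estimated count of reads without normalization, not whole where reads are shared) and the TPM. The authors' DESeq2 tables, which hold log2 fold changes and p-values, were used only for gene symbols and identifiers. In 14 library files a row names no gene, with 0% of the counts.

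Expected counts were rounded, filtered with filterByExpr, scaled by TMM and compared by edgeR's quasi-likelihood test (version 4.0.16, R 4.3.3). Genotypes were compared in the 9 libraries of a treatment, and LPS effects and their differences in all 18. P-values were adjusted over all genes tested (Benjamini-Hochberg, threshold 0.05). Standard errors were taken from the fold change and the F statistic. Precision is lowest for Cox7a1, which had few counts at this depth.

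Coordinates, exons and overlaps come from the GRCm38 annotation, and start sites and sequences from RefSeq. The members and lists were chosen with earlier results of these data known. Genes were named where they were core subunits, related copies, the highest or lowest of a complex, or among the 3 largest called changes per complex or list in each direction, and for Tsc22d3 and Lyz2; a complex I subunit among these is not reported here. The ratios, motif letters, library totals alone and the genes with 100 TPM or more were chosen after seeing the data. The alternatives were DESeq2 1.42.0, DESeq2's size factors, no filter, other sets of libraries, no TPM minimum, limma 3.58.1 on log2(TPM + 1) and log2(TPM + 0.1), replicate blocks and each library left out. Replicate numbers did not pair throughout: 3 of 18 pairs across genotypes and 4 of 9 pairs across treatments had a correlation of residuals above 0.1. The latter included all 3 pairs of GILZ TG, at 0.245 to 0.576, 1 of 3 pairs of WT, at 0.233, and 0 of 3 of GILZ KO. Whether libraries of the same number share a mouse is not given.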

Additional observations from a re-analysis of the deposited data

How the results depend on the processing

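Counts of called genes kept their side in most settings. The LPS calls reversed with library totals alone (39, 36 and 40 lower in WT, GILZ KO and GILZ TG), on log2(TPM + 1) (39, 36 and 39 lower) and on log2(TPM + 0.1) (39, 36 and 39 lower). The library totals differ from TMM by their scaling alone. The TPM settings differ by test and unit, and also scale each library to its total without TMM factors. Leaving out each library in turn gave 18 to 31 calls in WT, 29 to 33 in GILZ KO and 26 to 34 in GILZ TG. In GILZ KO against GILZ TG without treatment DESeq2 called 2 genes and the replicate block 1 (Cox6a1, adjusted p = 0.0443), and the cause was not tested. In GILZ TG against WT after LPS DESeq2 called 1 and no filter 1, and leaving out libraries gave 0 to 2. With genotype and replicate number together as a replicate block the LPS calls were 33, 34 and 34, and with the replicate number as a block the other genotype comparisons had 0 calls.

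The ratio of Cox7a2 to Cox7a2l changed by 0.44 to 0.49 with each library left out and that of Atp5g3 to Atp5g1 by 0.11 to 0.16, both called throughout. The ratio of Atp5g3 to Atp5g2 was called with the same replicate block (0.16, adjusted p = 0.0391, exact sign changes) and ranged from 0.13 to 0.20 with a library left out, called without GILZ KO untreated replicate 1, GILZ TG untreated replicate 3 or GILZ TG LPS replicate 2. That of Cox7a2l to Cox7a1 ranged from -0.33 to -0.16 and was called without GILZ KO LPS replicate 3 (-0.33). Depth limits Cox7a1, at 15 to 61 counts.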
